A study of Mus musculus with 4 samples.

Results

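Expression of 10 plasma cell and endoplasmic reticulum (ER) secretory genes was followed in N-myc-driven mouse B-cell acute lymphoblastic leukaemia (B-ALL) cells with and without Anp32b. The genes were taken by symbol and were Jchain, Xbp1, Mzb1, Derl3, Sdc1, Creld2, Hspa5, Hsp90b1, Pdia4 and Sel1l. All 10 were present among the 16613 symbols of the count files, and all 10 passed the filter on low counts that left 12123 symbols for testing. The samples were GFP+ bone marrow cells of recipient mice on the C57BL/6 strain. In the knockout group the recipients had received B220+ bone marrow cells of Anp32b-/- genotype transduced with N-myc, and in the wild-type group they had received such cells of Anp32b+/+ genotype, with 2 libraries per genotype. N-myc and the GFP gate were thus common to all 4 libraries. The sources used here do not give the vector's promoter, the ages of the mice or how many animals stand behind a library. The p-values therefore reflect the spread between these 4 libraries alone, and that spread may be technical.

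Plasma cells are the antibody-secreting end stage of the B lineage. Their differentiation enlarges the ER, where immunoglobulin chains are translocated, folded by chaperones, joined by disulfide bonds and, when misfolded, returned to the cytosol for degradation (ER-associated degradation, ERAD). The unfolded protein response (UPR) adjusts this capacity through the ER sensors IRE1, ATF6 and PERK. IRE1 splices Xbp1 mRNA into the form that encodes an active transcription factor, and ATF6 and XBP1 act through the ER stress response element (ERSE) in the promoters of chaperone genes. Precursor B cells, from which B-ALL arises, secrete no antibody, but they carry a basal level of the same machinery.

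The genotype label was borne out by Anp32b, at 74.4 and 70.6 CPM (normalised read counts per 1000000 reads, scaled by TMM) in knockout and 774 and 853 CPM in wild-type libraries. Library totals ran from 19581575 to 19605800 estimated reads in knockout and from 19692505 to 19758671 in wild type. B lineage genes were present: the 9 defining genes of this list summed to 5250 and 5290 CPM in knockout and 5760 and 5700 CPM in wild type, and 4 of 9 were called lower (Ebf1, Vpreb1, Igll1 and Blnk). Over all tested genes, 12.6% were called lower at an edgeR adjusted p under 0.05. Marker genes of other kinds differed too. The summed level of 17 neutrophil genes was 128 CPM in each knockout library against 638 and 648 CPM in wild type, with 16 of 17 called lower, and that of 4 Y-linked genes was 42.5 and 41.7 CPM against 156 and 173 CPM, with 4 of 4 called lower. Both sums separated the genotypes in these 4 libraries. Their part in the results on the secretory genes therefore cannot be told apart from that of genotype and was not tested.

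Which promoters carry an exact match to the element of the ER stress response is shown first, since it divides these genes by sequence alone. The RefSeq promoter window (GRCm38.p6) from 250 bases before to 50 after the transcription start was searched on both strands for the ERSE, which is CCAAT, 9 bases of any kind and CCACG. Of 9 members with a window in the table, 4 held it, namely Hspa5, Hsp90b1, Creld2 and Derl3. In all, 37 of 27025 genes (0.137%) held it. Only exact matches inside the window were counted, so near matches and sites further away were not seen. Hsp90b1 held 2 copies. The 5 sites are aligned here in the orientation of the element, with the fixed letters in capitals.
Hspa5: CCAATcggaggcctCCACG
Hsp90b1, distal: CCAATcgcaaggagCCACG
Hsp90b1, proximal: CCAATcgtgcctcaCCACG
Creld2: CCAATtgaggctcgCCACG
Derl3: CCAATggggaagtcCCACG
The sites lay between -212 and -47 bases from the start. The Hspa5 site and the distal Hsp90b1 site read along the gene, and the other 3 read on the opposite strand. Their 9-base spacers differed. The upstream sequences follow, 5′ to 3′ on the strand of the gene from -250 to -1, with the ERSE in capitals. A site on the opposite strand appears as its reverse complement. They are chr2:34771840-34772089 on the plus strand for Hspa5, chr10:86705445-86705694 on the minus strand for Hsp90b1, chr15:88819396-88819645 on the plus strand for Creld2 and chr10:75893148-75893397 on the plus strand for Derl3.
Hspa5: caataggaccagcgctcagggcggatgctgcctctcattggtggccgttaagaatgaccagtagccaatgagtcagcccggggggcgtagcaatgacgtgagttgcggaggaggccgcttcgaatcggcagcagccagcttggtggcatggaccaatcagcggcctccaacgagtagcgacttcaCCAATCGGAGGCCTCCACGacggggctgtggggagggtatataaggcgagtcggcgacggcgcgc
Hsp90b1: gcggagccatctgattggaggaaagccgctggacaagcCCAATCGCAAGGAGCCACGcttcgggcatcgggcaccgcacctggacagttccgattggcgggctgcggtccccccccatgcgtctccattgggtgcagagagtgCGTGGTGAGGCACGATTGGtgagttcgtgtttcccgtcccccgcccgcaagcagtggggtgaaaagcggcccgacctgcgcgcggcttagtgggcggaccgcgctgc
Creld2: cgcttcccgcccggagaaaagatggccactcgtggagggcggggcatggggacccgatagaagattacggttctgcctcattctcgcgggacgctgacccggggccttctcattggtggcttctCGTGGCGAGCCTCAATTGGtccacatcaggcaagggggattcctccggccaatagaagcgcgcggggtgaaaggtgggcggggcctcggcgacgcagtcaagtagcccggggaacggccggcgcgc
Derl3: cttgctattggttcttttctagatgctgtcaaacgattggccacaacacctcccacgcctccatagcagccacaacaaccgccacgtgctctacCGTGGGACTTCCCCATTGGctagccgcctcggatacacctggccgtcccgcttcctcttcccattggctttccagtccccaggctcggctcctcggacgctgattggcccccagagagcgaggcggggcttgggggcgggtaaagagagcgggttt

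Jchain, the member with the widest difference between genotypes, had no ERSE in its window. Its upstream sequence, chr5:88527898-88528147 on the minus strand, is shown with the ACGTG core of XBP1 sites, here on the opposite strand at -69 to -65, in capitals.
Jchain: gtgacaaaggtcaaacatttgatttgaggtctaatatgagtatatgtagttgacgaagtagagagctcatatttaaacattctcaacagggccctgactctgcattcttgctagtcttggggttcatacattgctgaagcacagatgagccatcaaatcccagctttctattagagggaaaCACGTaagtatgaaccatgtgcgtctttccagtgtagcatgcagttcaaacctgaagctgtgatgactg
The ACGTG core was found in 3 of the 9 windows (Jchain, Hspa5 and Derl3, where it was present on each strand in overlapping positions) and in 21.8% of all genes, so a match is common. The longer UPR element core TGACGTGG, which contains ACGTG and was found in 0.714% of all genes, and the ERSE-II element (ATTGG, any base, then CCACG), found in 0.0444%, were in 0 of the 9 windows. The windows of Xbp1, Pdia4, Sdc1 and Sel1l held none of the 4 motifs. A match is a description of letters and does not show binding. The lack of an exact match does not show that a working element is absent.

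**Figure D1:**
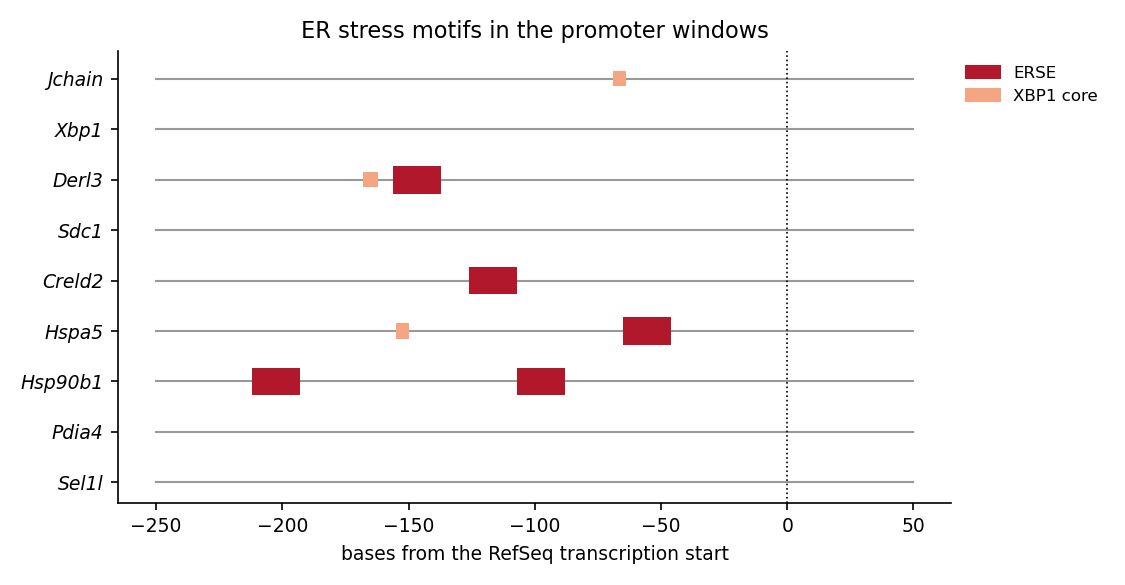
Positions of the ERSE (dark red) and of the ACGTG core of XBP1 sites (orange) in the promoter windows of 9 of the 10 genes, in bases from the RefSeq transcription start (dotted line). The windows of Derl3, Creld2, Hspa5 and Hsp90b1 hold an ERSE, Hsp90b1 holds 2, and all lie upstream of the start.

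Of the 10 genes, 3 rose in knockout (Pdia4, Derl3 and Xbp1), 2 fell (Jchain and Mzb1) and 5 did not pass the test (Creld2, Hspa5, Hsp90b1, Sdc1 and Sel1l), by edgeR's quasi-likelihood test at an adjusted p under 0.05. Over all tested genes 10.9% were called higher, 12.6% lower and 23.6% in either direction. The median log2 fold change was 0.02 for the 10 genes and 0.00 for all tested genes. The genes had no common direction, and a single one, Jchain, differed by more than 2-fold. The values of the genotypes did not overlap for 8 of the 10 genes, a pattern shown by 60.5% of the tested genes: both knockout libraries were above the wild-type pair for 5 (30.0% of tested genes) and below it for 3 (30.5%). Summed over the 10 genes, the level was 2320 and 2350 CPM in knockout and 2310 and 2400 CPM in wild type, so the total of this set differed by less than the gap between wild-type libraries. Hsp90b1 and Hspa5, at 809 and 625 CPM on average in knockout, made up most of this sum. It therefore says little about genes of low level such as Jchain. The calls changed when a knockout library was left out: without knockout replicate 1 none of the 10 genes was called higher and 1 lower, and without knockout replicate 2 there was 1 in each direction. The chi-square per degree of freedom between libraries was 5.29 in the wild-type pair and 2.09 in the knockout pair. A leave-out takes its spread from the pair that remains and also has fewer libraries. The cause of the changed calls was not tested.

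**Figure D2:**
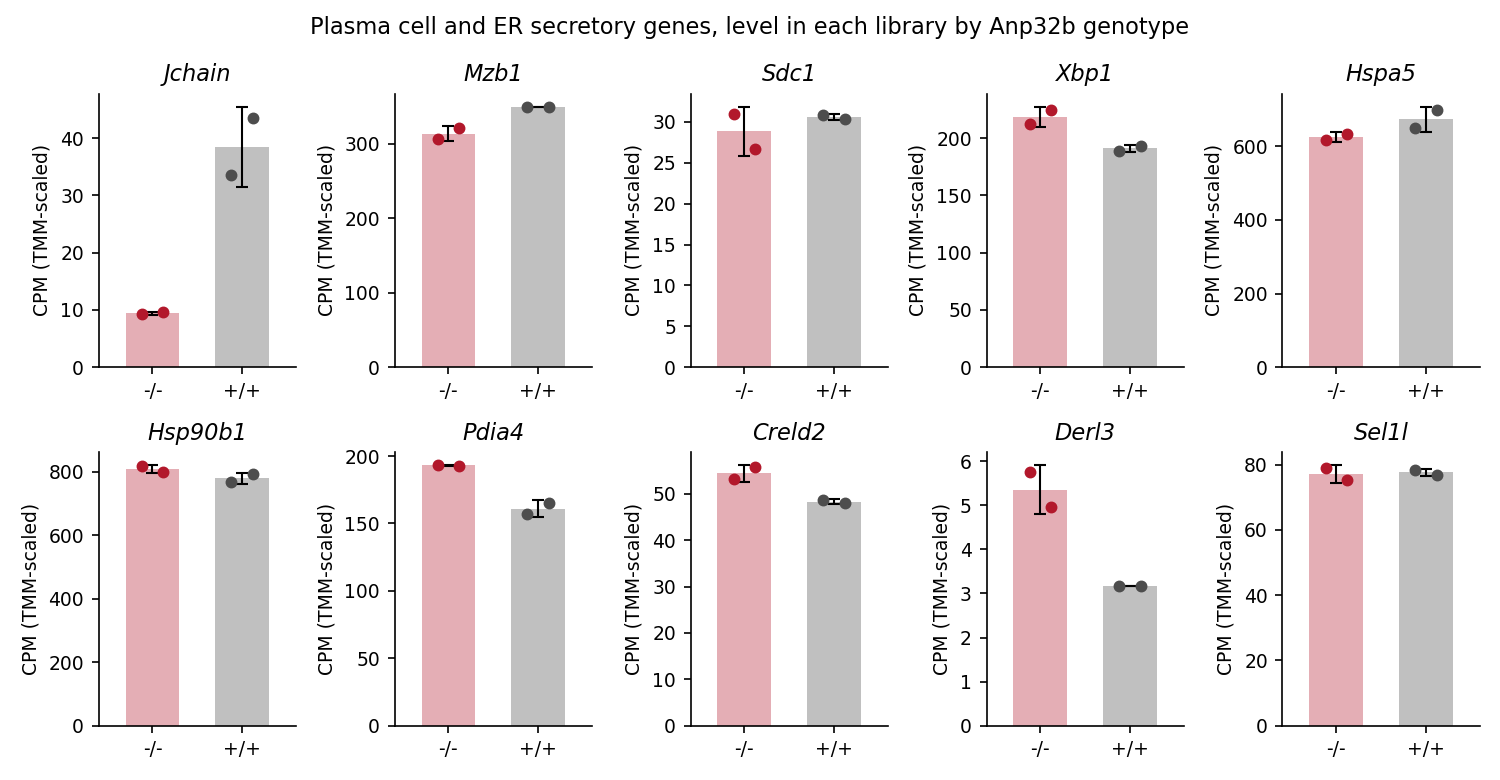
Level of each of the 10 genes in CPM (TMM-scaled, axes from 0) in Anp32b-/- (red, left) and Anp32b+/+ (grey, right) libraries. Points are libraries, bars are means and error bars are SD (n = 2). Jchain is at 9.24 and 9.56 CPM in knockout and 33.5 and 43.5 CPM in wild type, and the other 9 genes lie much closer together.

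Jchain encodes the joining chain that links IgM and IgA into polymers and is among the most abundant transcripts of plasma cells. It had 9.24 and 9.56 CPM in knockout libraries and 33.5 and 43.5 CPM in wild-type libraries. Both knockout values lay below both wild-type values, and the wild-type libraries were themselves apart. Jchain averaged 9.40 ± 0.225 CPM in knockout and 38.5 ± 7.02 CPM in wild type (SD, n = 2 each), 4.09-fold lower in knockout (log2 fold change -2.03, SE 0.12, 95% interval -2.29 to -1.77, edgeR adjusted p = 2.39e-08). The call was kept in 11 of 11 alternative settings, and the log2 fold change ran from -2.21 without wild-type replicate 1 to -1.84 without wild-type replicate 2. In this bulk RNA, fewer cells that express a gene and less of its RNA per cell cannot be told apart.

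In a list of 16 further plasma cell markers, which holds neither Mzb1 nor the plasma cell regulators described below, 15 were in the files and 11 were tested, of which 3 were called higher, none lower and 8 were not called, with a median log2 fold change of 0.14. Tnfrsf17, the receptor BCMA of plasma cells, had 1 and 0 reads in knockout and 3 and 2 reads in wild type, and Cd28 had 3 and 0 reads in knockout and 0 and 10 reads in wild type, both under the filter. These 2 genes were picked for mention as surface markers of the plasma cell after their values were seen. Eaf2 rose (0.73, SE 0.07, edgeR adjusted p = 3.45e-06), as did Fndc3b (0.86, SE 0.09, adjusted p = 5.15e-06) and Tnfrsf13b, which encodes the receptor TACI (0.48). Genes that were called in a list but are not among its leading genes, such as Tnfrsf13b, are named here and below after their values were seen. The summed level of the 15 markers was 708 and 723 CPM in knockout and 662 and 654 CPM in wild type. Plasmacytoid dendritic cells also express Jchain, Xbp1 and Derl3, and of 11 tested genes of their list 5 were called lower (Irf7, Tcf4, Siglech, Runx2 and Pacsin1) and 1 higher (median -0.93). Over all tested genes, 10.9% were called higher and 12.6% lower. The summed level of the plasmacytoid dendritic cell list was 146 and 156 CPM in knockout against 135 and 140 CPM in wild type. It was carried by Ly6d, which rose to 71.9 and 77.6 CPM in knockout against 35.5 and 39.2 CPM in wild type. In this bulk RNA, reads of Ly6d or Tcf4 from B lineage cells and from plasmacytoid dendritic cells cannot be told apart. The list sum therefore does not measure the amount of plasmacytoid dendritic cells. Of the genes called lower, Tcf4 had the highest level, 38.1 and 39.3 CPM in knockout against 49.6 and 52.7 CPM in wild type. The others had few reads, at most 100 in a library (Irf7), and Pacsin1 had 2 and 5 reads in knockout and 16 and 11 in wild type. Siglech, the defining surface gene of those cells, was at 0.742 and 1.03 CPM in knockout and 2.37 and 2.16 CPM in wild type. No gene of either list that was in the files was at 0 in all 4 libraries. Whether symbols without reads were left out of the files is not stated, so this does not show that every listed marker was expressed. Cav1 and Klk1, both under the filter, had no reads in the knockout libraries. In the wild-type libraries Cav1 had 2 and 0 reads and Klk1 had 10 and 2. The part of these cells in the Jchain difference was not tested.

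Mzb1 encodes an ER-resident partner of the chaperone GRP94 in B cells. It had 306 and 321 CPM in knockout and 349 and 350 CPM in wild type. The knockout values were the lower ones, by a margin small next to that of Jchain. Mzb1 fell by 0.16 on the log2 scale (SE 0.05, 95% interval -0.27 to -0.05, edgeR adjusted p = 0.0402). The call was lost with DESeq2 (adjusted p = 0.0881), with no filter on low counts (0.106) and when a knockout library was left out (0.444 for replicate 1, 0.229 for replicate 2). Mzb1 overlaps Spata24 on the same strand in the GENCODE annotation, and reads of the overlap may have been counted for either. Spata24 was at 10.1 and 9.29 CPM in knockout and 7.38 and 8.98 CPM in wild type, far below Mzb1. Within a library, the ratio of Jchain reads to Mzb1 reads was 0.0302 and 0.0297 in knockout and 0.0960 and 0.124 in wild type. The 2 genes, both raised in plasma cells, thus changed unequally.

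Sdc1 encodes syndecan-1, the surface proteoglycan used to mark plasma cells. It had 31.0 and 26.7 CPM in knockout and 30.8 and 30.3 CPM in wild type. The ranges overlapped, with 1 knockout library above and 1 below the wild-type pair. Its log2 fold change was -0.08 (95% interval -0.26 to 0.09, edgeR adjusted p = 0.528), and it turned to 0.021 without knockout replicate 2.

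Xbp1 encodes the transcription factor that drives the secretory programme of plasma cells. It had 212 and 225 CPM in knockout and 189 and 193 CPM in wild type. Both knockout libraries were above both wild-type libraries. Xbp1 rose 1.14-fold (log2 fold change 0.19, SE 0.05, 95% interval 0.08 to 0.31, edgeR adjusted p = 0.0164). The call was lost with no filter (adjusted p = 0.0808) and when a knockout library was left out (0.0890 for replicate 1, 0.328 for replicate 2). Counts per gene do not separate spliced from unspliced Xbp1, so they carry no measure of IRE1 activity.

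The regulators around Xbp1 moved in different directions. Prdm1, whose product BLIMP-1 establishes the plasma cell state, was low throughout, with 13 and 8 reads in knockout and 30 and 29 reads in wild type. It fell (-1.45, SE 0.37, edgeR adjusted p = 0.0104), a call lost with no filter on low counts (0.0667), with DESeq2 (0.203) and without knockout replicate 2 (0.159). Irf4, a factor needed for plasma cell formation and also active in pre-B cells, was at 337 and 330 CPM in knockout and 417 and 403 CPM in wild type, and fell by 0.30 on the log2 scale (SE 0.05, adjusted p = 0.000655, 0.0955 without knockout replicate 2). Ell2, an elongation factor of immunoglobulin mRNA processing, fell (-1.02, SE 0.13, adjusted p = 3.91e-05), while Fos rose (0.50, SE 0.05, adjusted p = 5.47e-06). Of 10 regulators, 3 were called higher and 3 lower, with a median of -0.14, and Ikzf3 (0.34) and Bmi1 (0.16) were the other rises. Over all tested genes, 10.9% were called higher and 12.6% lower. Among 9 factors that hold the B cell programme against plasma cell differentiation or act in mature B cells, 3 rose (Spib, Ets1 and Ciita) and 3 fell (Bach2, Ebf1 and Bcl6), with a median of 0.00. Bach2, a repressor of Prdm1, fell by 0.73 on the log2 scale (SE 0.07, adjusted p = 2.62e-06), to 47.1 and 46.8 CPM in knockout against 83.0 and 72.9 CPM in wild type. Pax5, the B cell identity factor, was at 603 and 573 CPM in knockout and 621 and 552 CPM in wild type, with overlapping ranges (adjusted p = 0.981).

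Hspa5 and Hsp90b1, the main ER chaperones and the members with the most reads, stayed close to their wild-type levels. Hspa5 encodes BiP, which binds nascent chains and, in its free or bound state, sets the activity of the UPR sensors. It had 617 and 634 CPM in knockout and 650 and 698 CPM in wild type. The knockout values were below the wild-type values, and the nearest values of the genotypes lay closer to each other than the wild-type libraries did. Hspa5 had a log2 fold change of -0.11 (SE 0.05, 95% interval -0.22 to 0.01) and missed the threshold (edgeR adjusted p = 0.171). It was called lower without wild-type replicate 1 (-0.16, adjusted p = 0.00629). Some of its counts carry decimals, as do some of Jchain and Sel1l, so some reads of these genes were shared out between features. How many is not given.

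Hsp90b1 encodes GRP94, the ER member of its chaperone family, which folds integrins and Toll-like receptors. It had 818 and 800 CPM in knockout and 768 and 793 CPM in wild type. The lower knockout value was just above the higher wild-type value. Hsp90b1 was not called (log2 fold change 0.05, 95% interval -0.06 to 0.16, edgeR adjusted p = 0.504). The gene overlaps other annotated transcripts on each strand, and the strand setting of the counting is not given. The ratio of Hsp90b1 to Hspa5 reads in a library was 1.33 and 1.26 in knockout and 1.18 and 1.14 in wild type, without overlap.

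Pdia4 encodes a protein disulfide isomerase of the ER. It had 193 CPM in each knockout library and 157 and 165 CPM in wild type. The knockout libraries were nearly equal and above both wild-type libraries. Pdia4 rose 1.20-fold (log2 fold change 0.26, SE 0.05, 95% interval 0.15 to 0.37, edgeR adjusted p = 0.00225), a call kept in 9 of 11 alternatives and lost when a knockout library was left out (0.0640 for replicate 1, 0.108 for replicate 2). Hspa5, with which it associates in chaperone complexes, was not called, and the ratio of their reads was 0.313 and 0.304 in knockout and 0.241 and 0.237 in wild type.

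Creld2, an ER stress-induced gene whose product has isomerase activity, had 53.2 and 55.7 CPM in knockout and 48.7 and 48.0 CPM in wild type. The knockout libraries were above the wild-type libraries. The log2 fold change of 0.17 (SE 0.06, 95% interval 0.04 to 0.31) missed the threshold (edgeR adjusted p = 0.0625). Its ERSE at chr15:88819520-88819538 also lies in the window of the neighbouring gene Alg12, a mannosyltransferase gene of N-glycan assembly, which was at 15.3 and 16.8 CPM in knockout and 15.6 and 13.2 CPM in wild type (adjusted p = 0.309).

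Derl3 and Sel1l act in ERAD, Derl3 as a derlin, a channel-associated membrane protein abundant in secretory cells, and Sel1l as the scaffold of the HRD1 ubiquitin ligase. Derl3 had 5.75 and 4.96 CPM in knockout and 3.16 and 3.18 CPM in wild type, that is 112 and 96 reads against 63 in each. The knockout libraries were above the wild-type libraries and further from each other than these were. Derl3 rose 1.69-fold (log2 fold change 0.76, SE 0.18, 95% interval 0.38 to 1.13, edgeR adjusted p = 0.00618). It was not called with DESeq2 (adjusted p = 0.138) or without knockout replicate 1 (0.0904), and the filter of 10 CPM left it out. Sel1l had 79.1 and 75.2 CPM in knockout and 78.4 and 76.8 CPM in wild type, with overlapping ranges (log2 fold change -0.01, 95% interval -0.13 to 0.11, adjusted p = 0.935). Its sign was not stable.

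**Figure D3:**
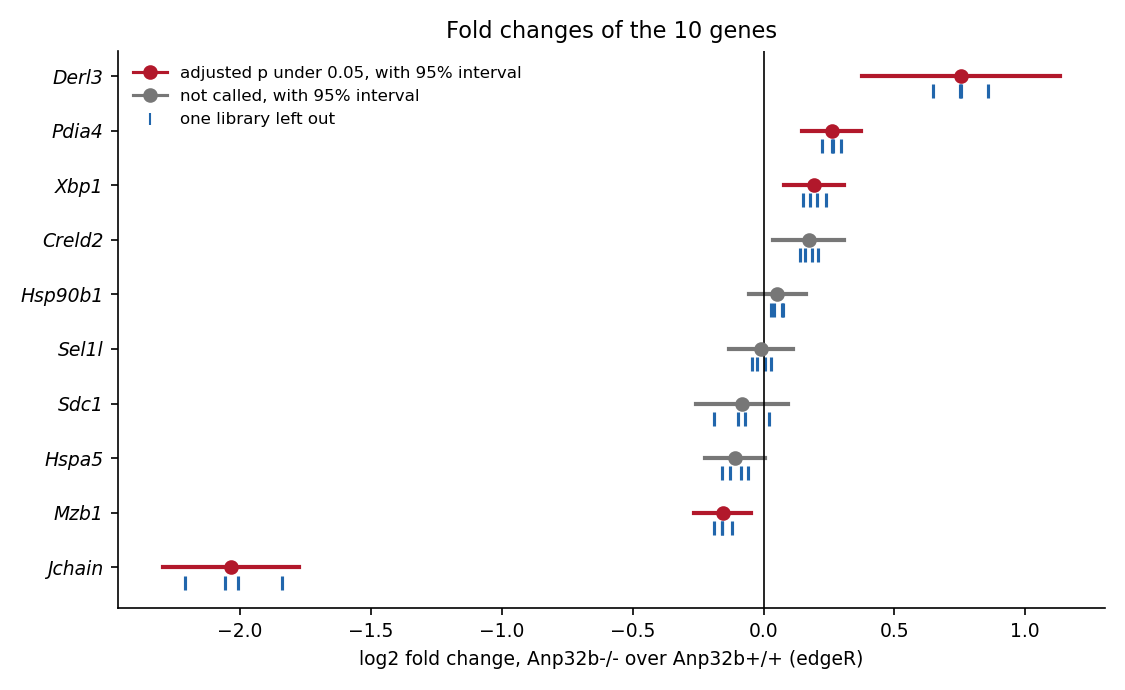
Log2 fold change of the 10 genes, Anp32b-/- over Anp32b+/+, with the 95% interval of edgeR's fit (red where the adjusted p is under 0.05, grey otherwise) and the values with one library left out (blue ticks). Jchain lies at -2.03, Derl3 at 0.76 and the other 8 genes between -0.16 and 0.26.

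Per length, the genes spanned a wide range of levels. Levels were divided by the length of the longest coding transcript in GENCODE. Mzb1 led with 347 ± 11.7 CPM per kb in knockout and 387 ± 0.641 in wild type, followed by Hsp90b1 (286 ± 4.45 in knockout, 276 ± 6.29 in wild type), Hspa5 (170 ± 3.39 and 184 ± 9.35), Xbp1 (99.6 and 106 in the knockout libraries, 88.7 and 90.7 in the wild-type libraries), Pdia4 (80.5 ± 0.120 and 67.1 ± 2.57) and Creld2 (39.9 ± 1.31 and 35.4 ± 0.382 CPM per kb, SD, n = 2 each). At the low end were Sel1l, Sdc1, Jchain and Derl3. With this length, Jchain was the only gene whose place differed by more than 1 position, at rank 9 of 10 in knockout (6.75 ± 0.162 CPM per kb) and rank 7 in wild type (27.6 ± 5.04), where it stood above Sel1l and Sdc1. Neighbours in this order did not overlap between libraries of a genotype. The order rests on the transcript length chosen: with the median coding transcript, Xbp1 and Hspa5 overlapped in knockout (199 ± 8.28 and 199 ± 3.97 CPM per kb), as did Sel1l and Sdc1 (12.5 ± 0.445 and 12.5 ± 1.30). In wild type Sdc1 then stood above Sel1l (13.2 ± 0.158 and 12.6 ± 0.180), so that Sel1l was at rank 7 in knockout and rank 9 in wild type.

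**Figure D4:**
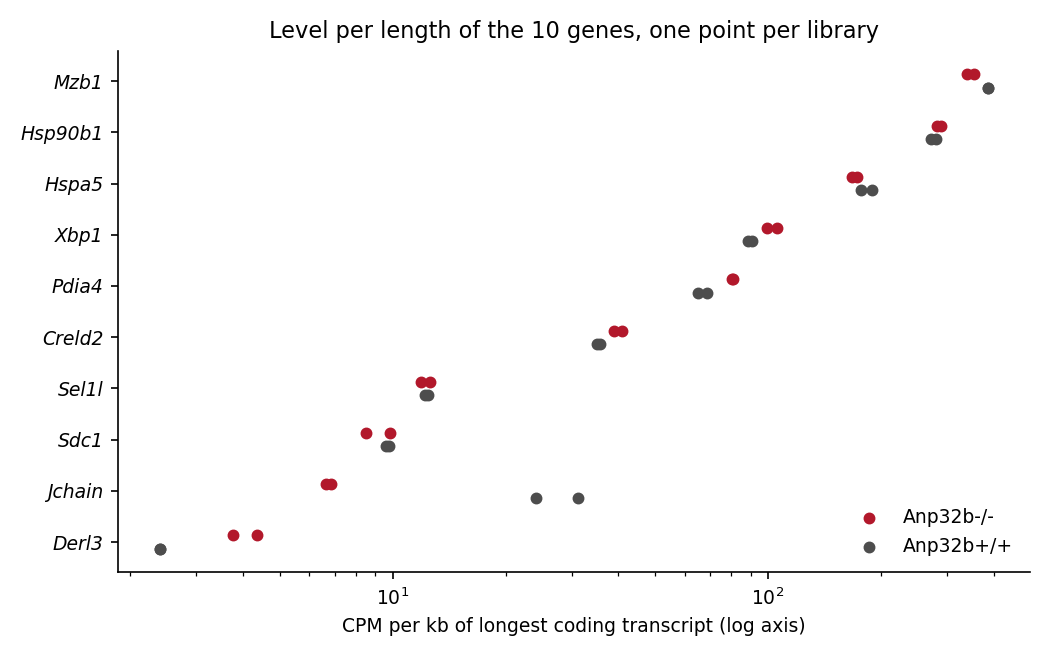
Level of the 10 genes in CPM per kb of the longest coding GENCODE transcript, on a log axis, with 1 point per library (Anp32b-/- red, above; Anp32b+/+ grey, below). With this length the order of the other 9 genes is the same in the genotypes, and Jchain moves, at 6.75 CPM per kb in knockout and 27.6 in wild type.

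The wider secretory machinery had mostly small differences. In 6 lists of ER chaperones, disulfide isomerases, ERAD, translocation, N-glycan and ER-Golgi transport genes, none of them members, 113 of 114 genes were tested: 22 (19.5%) were called higher, against 10.9% of all tested genes, and 3 (2.65%) lower, against 12.6%. Their median log2 fold change was 0.06, against 0.00 for all tested genes, and their tested values ran from -0.60 to 0.56. The count of higher calls was 7 without knockout replicate 1 and 1 without knockout replicate 2, and the count of lower calls was 8 with wild-type replicate 1 left out, 5 with wild-type replicate 2 left out, 1 with knockout replicate 1 left out and 2 with knockout replicate 2 left out, where lower calls thus outnumbered higher ones.

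By function, 4 of 17 ER chaperones and their cofactors rose and none fell (median 0.09), with Cnpy2 (0.29) and Dnajb9 (0.20) beside Hyou1 and Cnpy3. Hyou1, the exchange factor of BiP, rose to 217 and 221 CPM in knockout against 189 and 188 CPM in wild type (0.22, SE 0.05, edgeR adjusted p = 0.00584), and Cnpy3, a cofactor of GRP94, rose by 0.28 (SE 0.06, adjusted p = 0.00207). The calls of Hyou1 and Cnpy3 were lost when either knockout library was left out (highest adjusted p = 0.176). Of 15 disulfide isomerases and oxidases, 3 rose and 1 fell (median 0.11), with Erp29 (0.29) and Txndc5 (0.28) beside P4hb and Ero1b. P4hb, which encodes protein disulfide isomerase itself, rose to 405 and 416 CPM in knockout against 334 and 336 CPM in wild type (0.29, SE 0.05, adjusted p = 0.00063, 0.0888 without knockout replicate 2). Ero1b, an oxidase that recharges the isomerases and another holder of an ERSE, fell to 28.4 and 25.5 CPM in knockout against 41.2 and 40.6 CPM in wild type (-0.60, SE 0.07, adjusted p = 3.55e-05).

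Of 22 further ERAD genes, 2 rose and 1 fell (median -0.02), with Edem3 (0.20) beside Aup1 and Ube2j1. Aup1, a membrane protein that recruits a ubiquitin-conjugating enzyme, rose by 0.34 (SE 0.06, edgeR adjusted p = 0.00046, 0.0631 without knockout replicate 2), and Ube2j1, a conjugating enzyme of the pathway, fell by 0.18 on the log2 scale (SE 0.05, adjusted p = 0.0157), a call lost with no filter (0.0554) and when either knockout library was left out (highest 0.254). Of 23 translocon, signal recognition and signal peptidase genes, 7 rose and 1 fell (median 0.08). The signal peptidase subunit gene Spcs2 rose to 288 and 297 CPM in knockout against 226 and 237 CPM in wild type (0.34, SE 0.05, adjusted p = 0.000278, 0.0631 without knockout replicate 2), and Srpr, the signal recognition particle receptor gene, rose by 0.24 (SE 0.05). Of 14 genes of N-glycan addition and trimming, 2 rose and none fell (median 0.10), Mogs, the first glucosidase (0.40, SE 0.05, adjusted p = 4.41e-05), and Dpagt1 (0.30, SE 0.06). In ER-Golgi transport 4 of 22 tested genes rose and none fell (median 0.06), among them the cargo receptor Lman2 (0.37, SE 0.05, adjusted p = 0.000149, 0.0538 without knockout replicate 2) and the KDEL receptor gene Kdelr1 (0.23, SE 0.06), which returns BiP and GRP94 to the ER, beside Surf4 (0.16) and Sec31a (0.16). The calls of Srpr, Dpagt1 and Kdelr1 were lost when either knockout library was left out (highest adjusted p = 0.149), and that of Kdelr1 also with DESeq2 (0.0736).

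**Figure D5:**
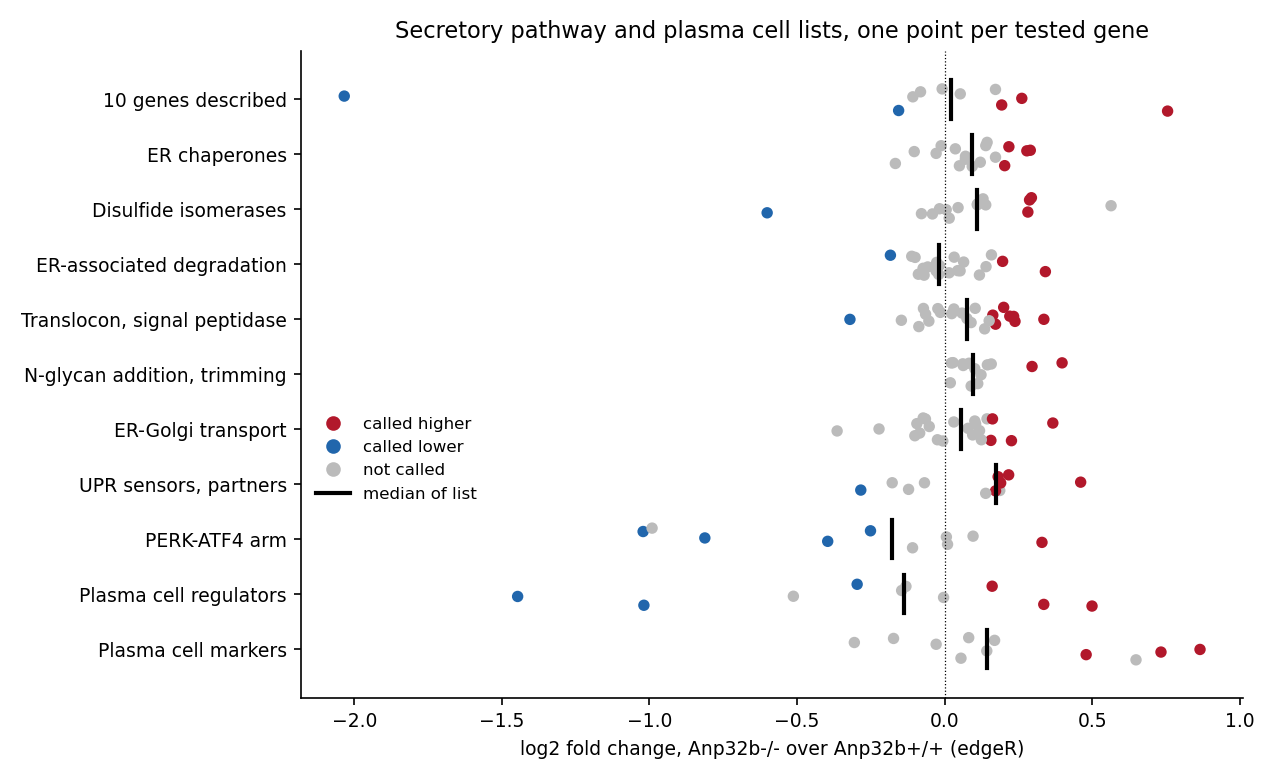
Log2 fold change, Anp32b-/- over Anp32b+/+, of each tested gene in the 10 genes described and in 10 lists of secretory pathway, UPR and plasma cell genes (red called higher, blue called lower, grey not called, black bar median). List medians lie between -0.18 for the PERK-ATF4 arm and 0.17 for UPR sensors and partners.

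UPR genes were called in both directions, against 10.9% called higher and 12.6% lower over all tested genes. Of 11 sensor genes, activating proteases and NF-Y subunits, the last being the factors that bind the CCAAT letters of the ERSE, 5 rose (Creb3l2, Atf6b, Mbtps1, Nfya and Nfyb) and 1 fell (median 0.17). Ern1, which encodes IRE1, was low, at 2.21 and 1.70 CPM in knockout and 2.56 and 1.87 CPM in wild type, with overlapping ranges (edgeR adjusted p = 0.685). Atf6 was at 44.1 and 44.3 CPM in knockout and 41.7 and 35.9 CPM in wild type (0.19, adjusted p = 0.0969, and 0.00432 without wild-type replicate 1). Eif2ak3, which encodes PERK, was at 46.2 and 49.1 CPM in knockout and 59.9 and 56.2 CPM in wild type and fell by 0.28 on the log2 scale (SE 0.07, adjusted p = 0.00575), a call lost with DESeq2 (0.0672), with no filter (0.0684) and when either knockout library was left out (highest 0.131). The ATF6-related Creb3l2 rose (0.46, SE 0.08, adjusted p = 0.00115). In the PERK-ATF4 arm, Atf4 itself included, 1 of 10 genes rose and 4 fell (median -0.18). Atf4, named here after its values were seen, was at 357 and 360 CPM in knockout and 348 and 364 CPM in wild type. Its ranges overlapped (edgeR adjusted p = 0.915). Sesn2 (-0.81), Ddit3 (-0.40) and Atf3 (-0.25) fell beside Trib3. The pseudokinase gene Trib3 fell to 4.62 and 4.54 CPM in knockout against 9.04 and 9.58 CPM in wild type (-1.02, SE 0.14, adjusted p = 6.74e-05), and Asns, asparagine synthetase, rose by 0.33 (SE 0.07, adjusted p = 0.00299), a call lost with DESeq2 (0.0527) and without knockout replicate 2 (0.0815).

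Among the 37 genes that carry an ERSE, 18 were tested, 2 were called higher and 1 lower (16.7% in either direction, against 23.6% of all tested genes), with a median log2 fold change of 0.08, against 0.00 for all tested genes. Without the members, 14 were tested and 1 was called in each direction, Ero1b lower and Xlr3b higher. Xlr3b averaged 12.7 CPM in knockout and 0.231 CPM in wild type (log2 fold change 5.77, edgeR adjusted p = 2.88e-08). It belongs to a family of closely alike genes, and how their reads were assigned was not tested. Of the 4 members with the element, Derl3 was called higher and Hspa5, Hsp90b1 and Creld2 were not called. The members that rose besides Derl3, which were Xbp1 and Pdia4, held no exact match in their windows.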

How the data were processed

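RNA-seq libraries of GFP+ bone marrow cells, 2 per genotype, were grouped by the genotype in the labels. The authors deposited estimated counts (expected counts) per gene symbol, 1 file per library, of which 64.5% to 65.6% per library were whole numbers. HISAT2 2.0.4, DESeq2 1.4.5 and GRCm38 are named in the submitters' processing notes. For the counting tool, annotation, strand setting and filters, nothing is given in the sources used here. Counts were rounded and tested with edgeR 4.0.16 (R 4.3.3) by its quasi-likelihood test on genotype alone, after filterByExpr (minimum count 10) and TMM scaling, with Benjamini-Hochberg adjustment over 12123 genes. 4490 symbols fell below the filter. At these depths 3 reads, the limit that a count of 0 allows, equal 0.152 to 0.153 CPM, which covers counting error only.

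Coordinates and promoters are RefSeq's for GRCm38.p6, and transcript lengths are from GENCODE M21 on the same build. The members and lists were chosen with earlier results of these data known, so no p was adjusted over a list alone and lists were given no test. Besides the members and Anp32b, genes were named by a rule: the 2 called genes of smallest p in each list, and Prdm1, Irf4, Pax5, Ern1 and Atf6 whatever their values. Alternatives were DESeq2 1.42.0, limma-voom (limma 3.58.1), RLE and upper-quartile normalization, other filters, the replicate number as a block and leaving out each library. A permutation test of 2 against 2 libraries has too few arrangements to be of use and was not run. Protein sequences were not used here.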

Additional observations from a re-analysis of the deposited data

How the results depend on the processing

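Counts of calls depended most on the filter, the tool and the knockout libraries. All tested genes gave 1323 higher and 1533 lower calls. With no filter on low counts these were 547 and 744, with DESeq2 680 and 714, and over the leave-outs they ran from 372 to 1676 and from 579 to 1712. Of the 10 genes, 3 were called higher (0 to 3 over the leave-outs) and 2 lower (1 to 3 over the leave-outs, 1 with no filter and 1 with DESeq2). For the secretory machinery lists, 22 genes were called higher (11 with no filter, 12 with DESeq2, 1 to 30 over the leave-outs) and 3 lower (1 with no filter, 1 to 8 over the leave-outs). The cause of these shifts was not tested. Each leave-out also has fewer samples, and in it the genotype with 1 library takes its spread from the other.

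Jchain was called in all 11 alternatives. Signs turned for 4 genes that were not called: over the leave-outs Sdc1 ran from -0.19 to 0.021, Sel1l from -0.042 to 0.028, Ern1 from -0.39 to 0.068 and Pax5 from -0.083 to 0.090, and Pax5 was at -0.027 with upper-quartile normalization and -0.016 with a filter of 10 CPM. For 35 named genes outside the 10, 346 of 381 alternative values kept direction and side of the threshold, 28 lost the call and 2 gained it.

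The replicate numbers share nothing in the labels beyond the number, and the deviations of same-numbered libraries had a correlation of 0.060 across genes. With the replicate number as a block, 1644 genes were called higher and 1779 lower, 4 of the 10 genes higher and 2 lower, Creld2 being the added one (adjusted p = 0.0414). Atf6 was called too (0.0383). With 2 libraries per genotype, and for genes of few reads such as Derl3 and Prdm1, small differences cannot be resolved.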
